A study of Homo sapiens with 4 samples.

Results

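The genes described here are 51 ribosome biogenesis and rRNA processing factors, taken by name from the 61267 rows of the deposited count table; all 51 were found and all 51 passed the filter on low counts. The RNA came from SU-DHL-2, a long-established human line of diffuse large B-cell lymphoma with the genotype label WT, grown throughout in medium with fetal bovine serum. One group of 2 libraries received solvent (vehicle), and the other group of 2 libraries were given 10 µM Spautin-1 for 36 h; this compound is known to block the deubiquitinases USP10 and USP13. No time is stated for the vehicle cells. All cells are of a single line, and separate cultures for the 2 libraries of a group are not stated, so p-values here reflect only how far these 4 libraries spread, and that spread may be technical.

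Ribosome assembly starts in the nucleolus, where RNA polymerase I transcribes a long precursor of the ribosomal RNAs. The small-subunit processome folds and cuts the part that becomes the small-subunit rRNA, box C/D particles direct ribose methylation and box H/ACA particles direct pseudouridylation, and a further series of factors assembles the large subunit around the remaining part. Growing B cells and lymphoma cells rely on a high output of this pathway. By these roles the genes were divided into RNA polymerase I (4 genes), box C/D (3), box H/ACA (4), small-subunit factors (17), large-subunit factors (19) and nucleolar proteins with several roles (4).

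The source label reads lymph node. Total counts per library lay between 34115420 and 38362526, and the genes of this pathway took 3.21% to 3.58% of them. Among 8 B-cell markers, 8 were detected above the filter and 4 were called higher after Spautin-1, where 11.5% of all genes tested were. CD79B was lower in both Spautin-1 libraries without being called (log2 fold change -0.42). Unscaled counts of the 8 markers summed to 28671 to 28862 per vehicle library and 38216 to 42452 per Spautin-1 library. MS4A1 alone gave 15351 and 14627 of these with vehicle and 23600 and 21067 with Spautin-1. The 5 T-cell and 5 myeloid markers summed to at most 38 and 34 counts per library, and the 4 fibroblast markers to at most 28, with COL3A1 at 0 in every library. Among 4 epithelial markers EPCAM stood at 48.6 CPM (counts scaled to a common library size by the TMM method) with vehicle and 52.6 CPM with Spautin-1, the cell-adhesion gene not being called, while KRT18 and CDH1 did not pass the filter.

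After Spautin-1, 25 of the 51 ribosome biogenesis genes fell and 1, NPM1, rose (edgeR quasi-likelihood test, two-sided, Benjamini-Hochberg adjusted p under 0.05 over all 18368 genes tested, as for every adjusted p given for these genes). In the background of all genes tested, 10.5% were called lower and 11.5% higher, against 49.0% lower and 1.96% higher here. Among the 9284 genes within the range of mean CPM of these 51, 15.3% were lower and 16.3% higher. The 51 genes were chosen with earlier results of these data known, so this contrast is a description and not a test. The median log2 fold change was -0.32 over the 51 genes and -0.011 over all genes tested, and 45 of 51 fold changes were below 0. The falls were moderate: among the 25 genes called lower the fold ran from 1.24 to 2.08 with a median of 1.504, and 14 fell at least 1.5-fold and 1, GRWD1, at least 2-fold. Both Spautin-1 libraries lay below both vehicle libraries in 36 genes and above them in 6, where 30.6% and 30.8% of all genes tested were separated in these ways. With 2 libraries a side the smallest p of an exact permutation test is 0.333, so a call for a single gene rests on the spread that edgeR shares across genes. In bulk RNA, fewer cells of a kind and less RNA per cell cannot be told apart.

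The number of genes that passed moved with single libraries. Without vehicle replicate 1, 34 genes were called lower, without vehicle replicate 2, 30, without Spautin-1 replicate 1, 14, and without Spautin-1 replicate 2, 9; in each such fit the lone library is assumed to vary like the pair that remains. In the same 4 fits 14.2%, 12.4%, 6.29% and 3.95% of all genes tested were called lower. An adjusted p from such a fit, where given below, rests on the group that kept 2 libraries and can be smaller than with all 4. The direction held in each single pair of libraries: the median difference in log2 CPM over the 51 genes was -0.33 and -0.42 for Spautin-1 replicate 1 against vehicle replicates 1 and 2, and -0.26 and -0.43 for Spautin-1 replicate 2. GAR1, GRWD1, MYBBP1A, NOP16, PNO1, POLR1A, RRP1B and RRS1, 8 genes, were called lower under every alternative that was run.

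**Figure D1:**
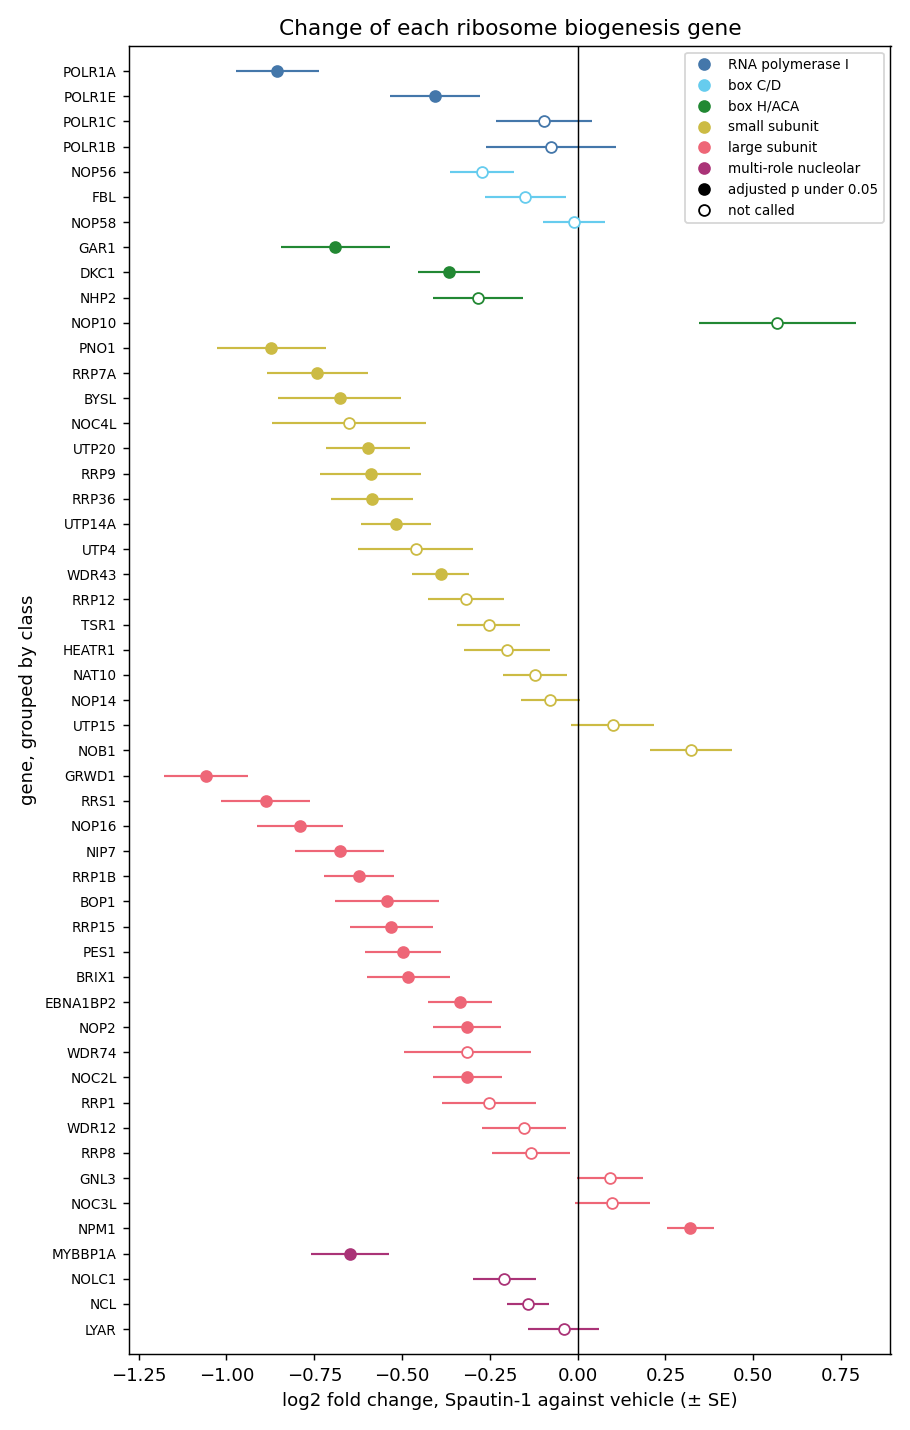
Log2 fold change (horizontal axis, ± SE) of each of the 51 genes (vertical axis), coloured by class; filled circles passed the edgeR test at an adjusted p under 0.05. 45 of the 51 points lie left of 0, from -1.06 for GRWD1, and the filled circle to the right of 0 is NPM1 at 0.32.

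Stretches of DNA before the start of 5 genes are shown because these genes carry the contrasts below: GRWD1 had the largest fall of all, NOP16 fell and holds the ETS core more than once, GAR1 fell while NOP10, its partner in 1 particle, stood higher without passing, and NPM1 was called higher. They were chosen after the values were seen. Each is the run of 250 bases before the RefSeq gene start (build GRCh38.p14), written 5′ to 3′ on the strand of the gene: GRWD1 (chr19:48445733-48445982, plus strand), NOP16 (chr5:176388599-176388848, minus strand), GAR1 (chr4:109815260-109815509, plus strand), NOP10 (chr15:34343137-34343386, minus strand) and NPM1 (chr5:171387599-171387848, plus strand). Capitals mark CCGGAA, the core recognised by ETS transcription factors, on either strand (TTCCGG on the other), and the palindrome CACGTG, the E-box of basic helix-loop-helix factors. The gene bounds given below span every transcript in the deposited table and can reach into these windows.
GRWD1: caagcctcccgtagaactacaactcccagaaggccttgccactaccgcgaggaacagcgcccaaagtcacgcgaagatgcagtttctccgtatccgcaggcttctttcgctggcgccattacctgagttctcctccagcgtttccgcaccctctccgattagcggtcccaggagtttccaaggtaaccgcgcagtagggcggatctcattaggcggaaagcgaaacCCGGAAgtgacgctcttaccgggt
NOP16: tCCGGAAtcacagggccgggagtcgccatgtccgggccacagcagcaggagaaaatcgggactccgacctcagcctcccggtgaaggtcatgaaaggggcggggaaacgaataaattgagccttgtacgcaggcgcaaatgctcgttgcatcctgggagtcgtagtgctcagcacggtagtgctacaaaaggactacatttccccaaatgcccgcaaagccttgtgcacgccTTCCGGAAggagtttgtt
GAR1: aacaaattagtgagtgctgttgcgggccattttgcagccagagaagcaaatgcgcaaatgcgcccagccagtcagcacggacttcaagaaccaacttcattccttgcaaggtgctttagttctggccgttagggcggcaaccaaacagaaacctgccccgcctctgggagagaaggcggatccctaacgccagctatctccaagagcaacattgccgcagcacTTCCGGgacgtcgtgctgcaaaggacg
NOP10: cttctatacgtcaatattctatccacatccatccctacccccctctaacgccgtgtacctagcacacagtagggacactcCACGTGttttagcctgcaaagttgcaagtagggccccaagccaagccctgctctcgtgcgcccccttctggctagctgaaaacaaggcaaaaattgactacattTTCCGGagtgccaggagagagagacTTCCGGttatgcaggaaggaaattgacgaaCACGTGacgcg
NPM1: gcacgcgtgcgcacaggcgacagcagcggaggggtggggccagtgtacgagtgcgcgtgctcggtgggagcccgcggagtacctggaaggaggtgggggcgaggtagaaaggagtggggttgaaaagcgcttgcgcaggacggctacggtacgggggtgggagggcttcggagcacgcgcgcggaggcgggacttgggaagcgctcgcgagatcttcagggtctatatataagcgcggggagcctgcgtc

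In these 5 windows CCGGAA occurs 1 time before GRWD1 and GAR1 each, 3 times before NOP16, 2 of them sharing bases in TTCCGGAA, 2 times before NOP10 and 0 times before NPM1, and CACGTG occurs 2 times before NOP10. RefSeq windows were found for 44 of the 51 genes, the missing ones being BOP1, NOLC1, NOP58, POLR1E, RRP12, RRP1B and RRS1. CCGGAA or its complement was present in 21 of 44 (47.7%), in 24.9% of 11169 windows of genes tested here and in 14.8% of all 27305 windows of this length. CACGTG was present in 6 (13.6%, against 8.70% of genes tested and 6.49% of all), and the GC box GGGCGG or CCGCCC in 30 (68.2%, against 64.4% and 42.3%). In 96 windows of further ribosome biogenesis factors the shares were 49.0% for CCGGAA, 13.5% for CACGTG and 57.3% for GGGCGG. Overlaps between motifs were allowed. By the ETS core, 11 of 21 genes with it were called lower, with a median log2 fold change of -0.32, and 10 of 23 without it, with a median of -0.28. Of all genes tested, 10.5% were called lower. The median GC content of the windows was 64.2%, and 64.4% over genes tested. These matches are descriptions of letters and were not tested.

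Of the 4 RNA polymerase I subunits, 2 were called lower and 2 did not pass, and no difference between subunits was tested. The share called lower over all genes was 10.5%. POLR1A (chromosome 2, 86020216 to 86106155, GRCh38), the largest and catalytic subunit, stood at 91.3 CPM and 91.9 CPM with vehicle, and at 54.0 CPM and 47.2 CPM with Spautin-1. Both treated libraries lay well below the vehicle pair, a fall of 1.81-fold (log2 fold change -0.86 ± 0.12, adjusted p = 0.000419; ± is the standard error here and below). POLR1E (chromosome 9, 37485948 to 37503697), a subunit of the dimer that helps initiation and elongation, had 27.5 and 30.7 CPM after treatment where the vehicle pair had 38.8 and 38.5 CPM. It fell 1.33-fold (log2 fold change -0.41 ± 0.13, adjusted p = 0.0403), and the call was lost without Spautin-1 replicate 1 (-0.34, adjusted p = 0.379) or replicate 2 (-0.48, adjusted p = 0.19).

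POLR1C (chromosome 6, 43509702 to 43562419), a subunit shared with RNA polymerase III, measured 28.2 and 26.3 CPM without Spautin-1 and 26.6 and 24.4 CPM with it. The groups overlapped (log2 fold change -0.096, 95% interval -0.39 to 0.20, adjusted p = 0.664). The second-largest subunit POLR1B had a log2 fold change of -0.076 (95% interval -0.48 to 0.33) at the lowest level per exonic length of all 51 genes, 1.14 FPKM (CPM per kilobase of exons) in vehicle, and its sign turned without vehicle replicate 1 (0.092). Of the 11 further RNA polymerase I genes of the pathway, 2 (18.2%) fell and 4 (36.4%) rose, beside 10.5% and 11.5% of all genes tested. POLR1G, the partner of POLR1E in its dimer, read 302 and 306 CPM in vehicle replicates 1 and 2, then 137 and 124 CPM in Spautin-1 replicates 1 and 2, a fall of 2.33-fold (log2 fold change -1.22 ± 0.10, adjusted p = 1.03e-05). UBTF, the factor that opens the rDNA promoter, fell 1.33-fold (adjusted p = 0.00677), while TAF1D, a subunit of the selectivity factor SL1, stood at 206 CPM and 185 CPM with vehicle, and at 376 CPM and 368 CPM with Spautin-1 and rose 1.90-fold (log2 fold change 0.93 ± 0.10, adjusted p = 7.23e-05). TAF1D is also a host of small nucleolar RNAs. TAF1C (1.56-fold), TAF1A (1.39-fold) and POLR1D (1.254-fold) rose as well.

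The box C/D proteins, which carry out ribose methylation, had a median log2 fold change of -0.15, and none of the 3 passed in the edgeR test, where 1 had an unadjusted p under 0.05; DESeq2 called 0, and limma-voom 1, NOP56. NOP56 (chromosome 20, 2652593 to 2658393), a scaffold protein of the particle, had 358 and 365 CPM after treatment where the vehicle pair had 425 and 447 CPM. Both treated libraries were below both vehicle libraries, and the change missed the threshold narrowly (log2 fold change -0.27 ± 0.091, adjusted p = 0.0511); NOP56 was called lower in 9 of the 13 alternatives, limma-voom and an offset for GC content among them. The methyltransferase FBL measured 97.9 and 111 CPM without Spautin-1 and 98.5 and 89.8 CPM with it, with overlapping groups (log2 fold change -0.15 ± 0.12, adjusted p = 0.394). FBL was at -0.24, adjusted p = 0.0461 without vehicle replicate 1, where 2 of the 3 box C/D genes were called lower, and at -0.055 without vehicle replicate 2. NOP58, the other scaffold, read 755 and 834 CPM in vehicle replicates 1 and 2, then 782 and 795 CPM in Spautin-1 replicates 1 and 2, and its interval of -0.20 to 0.18 around a log2 fold change of -0.011 left both directions possible.

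In the box H/ACA particle, which converts uridine to pseudouridine and also forms part of telomerase, 2 of 4 proteins fell. The share called lower over all genes was 10.5%. GAR1 (chromosome 4, 109815510 to 109824740) stood at 57.5 CPM and 82.2 CPM with vehicle, and at 43.1 CPM and 43.6 CPM with Spautin-1. Its vehicle libraries differed by 0.52 on the log2 scale, yet both exceeded the treated pair (log2 fold change -0.69 ± 0.16, adjusted p = 0.00827). Without vehicle replicate 2 the change was -0.41, and without vehicle replicate 1 it was -0.93. The pseudouridine synthase DKC1 (chromosome X, 154762742 to 154777689) had 610.2 and 556 CPM after treatment where the vehicle pair had 745 and 758 CPM. DKC1 fell 1.29-fold (log2 fold change -0.37 ± 0.089, adjusted p = 0.0122), and the call was lost without Spautin-1 replicate 2 (-0.29, adjusted p = 0.23). NHP2 was lower in both treated libraries without passing (log2 fold change -0.28 ± 0.13, adjusted p = 0.138), and 28.1% of its exonic bases lie opposite RMND5B. NHP2 stood at -0.45 without vehicle replicate 1 and at -0.094 without vehicle replicate 2.

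NOP10 (chromosome 15, 34339159 to 34343180), the smallest protein of the particle, had the opposite sign: it measured 4.09 and 5.80 CPM without Spautin-1 and 7.30 and 7.39 CPM with it. Both treated libraries were above both vehicle libraries, but the test was not passed (log2 fold change 0.57 ± 0.22, adjusted p = 0.0891, 95% interval 0.083 to 1.05); it passed without vehicle replicate 2 (0.85, adjusted p = 0.0043) and with a block, a term for the replicate number (0.59, adjusted p = 0.0404). NOP10 rested on 142, 224, 274 and 256 reads, all even numbers, and most counts from 1 to 20 in this table were even too, so how many separate fragments they stand for is not known. NOP10 had a level of 3.14 FPKM in vehicle, whereas GAR1, NHP2 and DKC1 stood at 35.6, 72.2 and 81.7 FPKM. Of 11 chaperones and assembly proteins of the box C/D and H/ACA particles, 2 (18.2%) fell, the helicase-like ATPases RUVBL2 (1.31-fold) and RUVBL1 (1.22-fold). The share called lower over all genes tested was 10.5%. A log2 fold change below 0 was seen in 10 of the 11, and in 50.8% of all genes tested.

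Among the 17 small-subunit genes 8 fell and 0 rose in the edgeR test, where 1, NOB1, was higher at an unadjusted p under 0.05 and DESeq2 and limma-voom called 0 and 0 higher; the median log2 fold change was -0.46. Both Spautin-1 libraries lay below both vehicle libraries in 14 of the 17. Of all genes tested, 30.6% were separated in this way and 10.5% were called lower. PNO1 (chromosome 2, 68157888 to 68176238), which sits with the endonuclease NOB1 where the small-subunit rRNA is cut last, read 48.5 and 67.6 CPM in vehicle replicates 1 and 2, then 32.3 and 31.1 CPM in Spautin-1 replicates 1 and 2. The treated pair lay far below the vehicle pair (log2 fold change -0.87 ± 0.16, adjusted p = 0.00208). RRP7A (chromosome 22, 42508344 to 42519796), a member of the UTP-C complex, stood at 46.3 CPM and 51.0 CPM with vehicle, and at 25.7 CPM and 32.5 CPM with Spautin-1. It fell 1.67-fold (log2 fold change -0.74 ± 0.14, adjusted p = 0.00338), lost the call without Spautin-1 replicate 1 (-0.59, adjusted p = 0.0672), and shares 33.95% of its exonic bases with SERHL on the opposite strand.

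UTP14A (chromosome X, 129906121 to 129929761), which activates the helicase DHX37, had 135 and 139 CPM after treatment where the vehicle pair had 197 and 195 CPM. With close replicates in both groups the fall was 1.43-fold (log2 fold change -0.52 ± 0.10, adjusted p = 0.0034); leaving out Spautin-1 replicate 1 or 2 raised the adjusted p to 0.0548 and 0.0584, past the threshold. UTP20 (chromosome 12, 101280105 to 101386618), a very large scaffold protein of the processome, measured 134 and 113 CPM without Spautin-1 and 84.2 and 78.9 CPM with it. It fell 1.51-fold (log2 fold change -0.60 ± 0.12, adjusted p = 0.00406), with the call lost without Spautin-1 replicate 2 (adjusted p = 0.0737). BYSL, a factor of late small-subunit particles (1.60-fold), the U3 snoRNA-binding protein RRP9 (1.504-fold), RRP36 (1.501-fold) and the UTP-A protein WDR43 (1.31-fold) also fell, with adjusted p between 0.00412 and 0.0159. BYSL, RRP9 and RRP36 were not called without Spautin-1 replicate 1 or without replicate 2 (adjusted p up to 0.121), nor WDR43 without replicate 2 (0.0788), and the log2 fold change of BYSL shrank to -0.40 without vehicle replicate 2.

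NOC4L (chromosome 12, 132144457 to 132152473), the partner of NOP14, showed how far the vehicle libraries could lie apart: it read 15.3 and 26.6 CPM in vehicle replicates 1 and 2, then 13.8 and 12.9 CPM in Spautin-1 replicates 1 and 2. The test was narrowly missed (log2 fold change -0.65 ± 0.22, adjusted p = 0.0513), and 8 of the 13 alternatives, DESeq2 among them, called it lower; the log2 fold change was -0.99 without vehicle replicate 1 and -0.20 without vehicle replicate 2. Among UTP-A proteins, which join the processome to transcription, UTP4 (log2 fold change -0.46 ± 0.16, adjusted p = 0.0624) and HEATR1 (log2 fold change -0.20 ± 0.12, adjusted p = 0.274) were lower without passing, and UTP15 stood at 0.099 (95% interval -0.16 to 0.36). RRP12 (-0.32), TSR1 (-0.25), the rRNA acetyltransferase NAT10 (-0.12) and NOP14 (-0.078) did not pass on the log2 scale either. UTP4, RRP12 and TSR1 were called lower in 5, 5 and 5 of the 13 alternatives. Without vehicle replicate 1, UTP4 was at -0.57, RRP12 at -0.43, TSR1 at -0.27 and HEATR1 at -0.064. Without vehicle replicate 2, UTP4 was at -0.34, RRP12 at -0.19, TSR1 at -0.24 and HEATR1 at -0.33. NOB1, the endonuclease that PNO1 accompanies, stood at 50.5 CPM and 54.6 CPM with vehicle, and at 66.5 CPM and 64.9 CPM with Spautin-1. Its treated libraries were both above the vehicle pair, short of the threshold (log2 fold change 0.32 ± 0.12, adjusted p = 0.0662). NOB1 passed with the GC offset and with the replicate block, and stood at 0.27 and 0.38 without vehicle replicates 1 and 2. On the opposite strand, NQO1-DT shares 20.4% of the exonic bases of NOB1.

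Of 41 further small-subunit factors 13 (31.7%) fell and 1 (2.44%) rose, with a median of -0.31. Of all genes tested, 10.5% were called lower and 11.5% higher. The helicase DHX37, partner of UTP14A, had 55.3 and 52.1 CPM after treatment where the vehicle pair had 91.4 and 123 CPM, a fall of 2.00-fold (adjusted p = 0.000503), and DCAF13 measured 129 and 118 CPM without Spautin-1 and 71.7 and 81.6 CPM with it, a fall of 1.61-fold (log2 fold change -0.69 ± 0.12, adjusted p = 0.00146). The kinase RIOK2, which acts on late cytoplasmic particles, rose 1.45-fold (log2 fold change 0.54 ± 0.13, adjusted p = 0.0111).

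**Figure D2:**
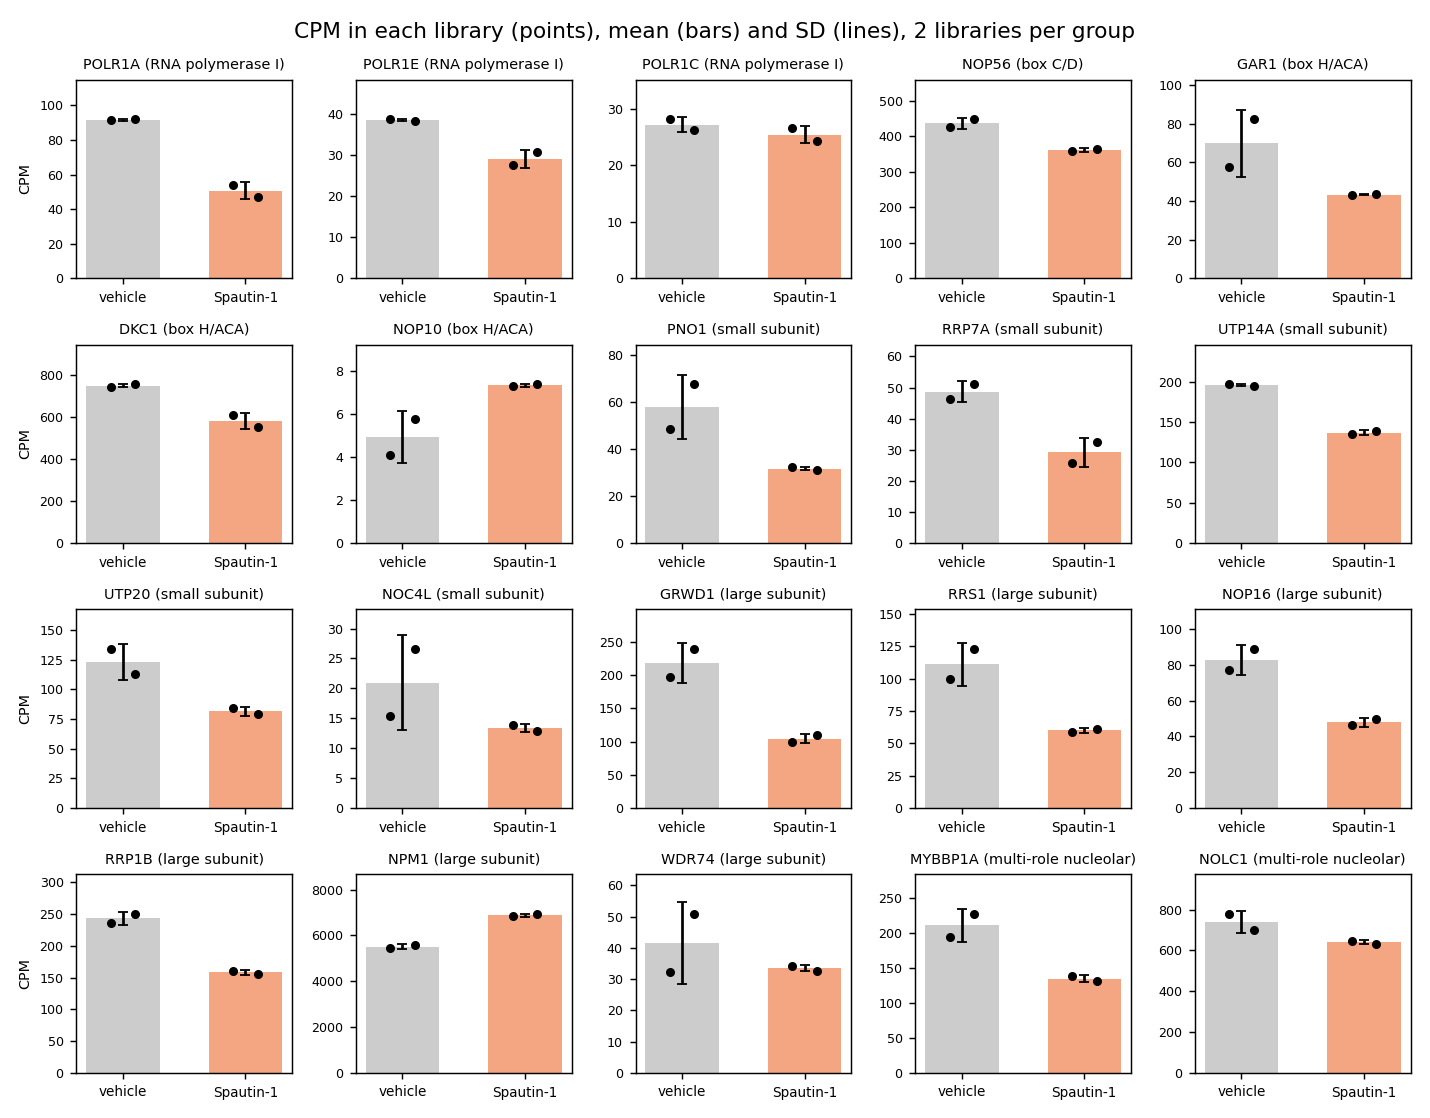
CPM (vertical axes, linear from 0) of 20 genes in the 2 vehicle and 2 Spautin-1 libraries: points are libraries, bars are means and lines are SDs. The treated points of GRWD1 (99.7 and 109.7) lie far below the vehicle points, those of NPM1 and NOP10 lie above, and the vehicle points of NOC4L and WDR74 are wide apart.

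In large-subunit assembly 12 of 19 genes fell and 1 rose, where 10.5% of all genes tested were called lower and 11.5% higher. The median log2 fold change was -0.33. GRWD1 (chromosome 19, 48445841 to 48457022), a chaperone that escorts a ribosomal protein of the large subunit to the nucleolus, read 197 and 239 CPM in vehicle replicates 1 and 2, then 99.7 and 109.7 CPM in Spautin-1 replicates 1 and 2. It showed the largest fall of all 51 genes, 2.08-fold (log2 fold change -1.06 ± 0.12, adjusted p = 9.9e-05). RRS1 (chromosome 8, 66429014 to 66430733), which helps bring in the small ribosomal RNA made by RNA polymerase III, stood at 99.6 CPM and 123 CPM with vehicle, and at 58.7 CPM and 61.5 CPM with Spautin-1. It fell 1.85-fold (log2 fold change -0.89 ± 0.13, adjusted p = 0.000497).

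NOP16 (chromosome 5, 176383946 to 176388927), a nucleolar protein of early large-subunit particles, had 46.2 and 49.6 CPM after treatment where the vehicle pair had 77.0 and 88.7 CPM. It fell 1.73-fold (log2 fold change -0.79 ± 0.12, adjusted p = 0.000875), and 18.6% of its exonic bases lie opposite ARL10 or HIGD2A. RRP1B (chromosome 21, 43659560 to 43696079) measured 237 and 250.2 CPM without Spautin-1 and 161 and 155 CPM with it. It fell 1.54-fold with little spread in either group (log2 fold change -0.62 ± 0.099, adjusted p = 0.00107), whereas its neighbour and relative RRP1 (chromosome 21, 43789513 to 43805293) stood at 206 and 283 CPM in vehicle and 202 and 208 CPM in Spautin-1, with overlapping groups (log2 fold change -0.25 ± 0.13, adjusted p = 0.202). For RRP1 the vehicle libraries decided the value: it was -0.47 and called lower without vehicle replicate 1 (adjusted p = 9.11e-07), and -0.0052 without vehicle replicate 2 (0.979).

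In the PeBoW complex, a trimer needed to process large-subunit rRNA, PES1 fell 1.41-fold, with means going from 301 ± 38.3 to 213 ± 1.76 CPM (± SD over 2 libraries a side; edgeR, adjusted p = 0.00676) and BOP1 1.46-fold, from 73.6 ± 16.4 to 50.5 ± 2.51 CPM (adjusted p = 0.0212). WDR12, the remaining subunit, had a log2 fold change of -0.15 (95% interval -0.42 to 0.11, adjusted p = 0.402); the difference between subunits was not tested. WDR12 was called lower without vehicle replicate 2 (-0.26, adjusted p = 0.0413) and stood at -0.040 without vehicle replicate 1. BOP1 was at -0.29 without vehicle replicate 2, and lost its call without Spautin-1 replicate 1 (adjusted p = 0.108) or replicate 2 (0.0775), as PES1 did without replicate 2 (0.0722). NIP7 (1.60-fold), RRP15 (1.44-fold), BRIX1 (1.40-fold), EBNA1BP2 (1.26-fold), the rRNA cytosine methyltransferase NOP2 (1.24-fold) and NOC2L (1.24-fold) fell too, with adjusted p from 0.0027 to 0.0387. These 6 lost their calls without Spautin-1 replicate 2 (adjusted p from 0.0505 to 0.231), all but NIP7 also without replicate 1, and NOP2 and NOC2L with the GC offset (adjusted p = 0.0525 and 0.059). NOP2 shares 54.4% of its exonic bases with an unnamed gene on the same strand, so its reads may be split.

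NPM1 (chromosome 5, 171387116 to 171411810), the abundant nucleolar chaperone nucleophosmin, was the gene called higher. It read 5438 and 5574 CPM in vehicle replicates 1 and 2, then 6828 and 6929 CPM in Spautin-1 replicates 1 and 2. The replicates were close and the rise was 1.249-fold (log2 fold change 0.32 ± 0.066, adjusted p = 0.00483); NPM1 was called higher under all 13 alternatives. The table holds 49 rows named as NPM1 pseudogenes, which together hold 1.55% of the reads of NPM1 and these rows, and the handling of reads that match several places is not stated in the labels. GNL3, the GTP-binding protein nucleostemin (0.092, 95% interval -0.11 to 0.30), and NOC3L (0.099, -0.13 to 0.33) had both treated libraries above the vehicle pair without passing, and the change of NOC3L was -0.0049 with the GC offset. WDR74 (chromosome 11, 62832342 to 62841809) stood at 32.2 CPM and 50.8 CPM with vehicle, and at 34.1 CPM and 32.7 CPM with Spautin-1. Vehicle replicate 2 thus stood alone above the other libraries (log2 fold change -0.31 ± 0.18, adjusted p = 0.243). Without that library the log2 fold change was 0.052, and without vehicle replicate 1 it was -0.61. RRP8, which methylates an adenine of the large-subunit rRNA, was at -0.13 and did not pass.

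Of 48 further large-subunit factors 15 (31.2%) fell and 1 (2.08%) rose, with a median of -0.14. SURF6 had 164 and 166 CPM after treatment where the vehicle pair had 271 and 369 CPM, a fall of 1.94-fold (log2 fold change -0.96 ± 0.13, adjusted p = 0.000417), and NIFK, which binds a protein that marks dividing cells, measured 76.9 and 65.7 CPM without Spautin-1 and 40.3 and 37.8 CPM with it, a fall of 1.82-fold (log2 fold change -0.87 ± 0.13, adjusted p = 0.000595). EFL1, a GTPase of late cytoplasmic maturation of the large subunit, rose 1.45-fold (log2 fold change 0.53 ± 0.12, adjusted p = 0.00729). Over the 111 further factors of all classes, 32 (28.8%) fell and 6 (5.41%) rose, with a median of -0.17. The shares over all genes tested were 10.5% lower and 11.5% higher. How many of the further factors were called moved with the library dropped, as did the share called over all genes tested.

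**Figure D3:**
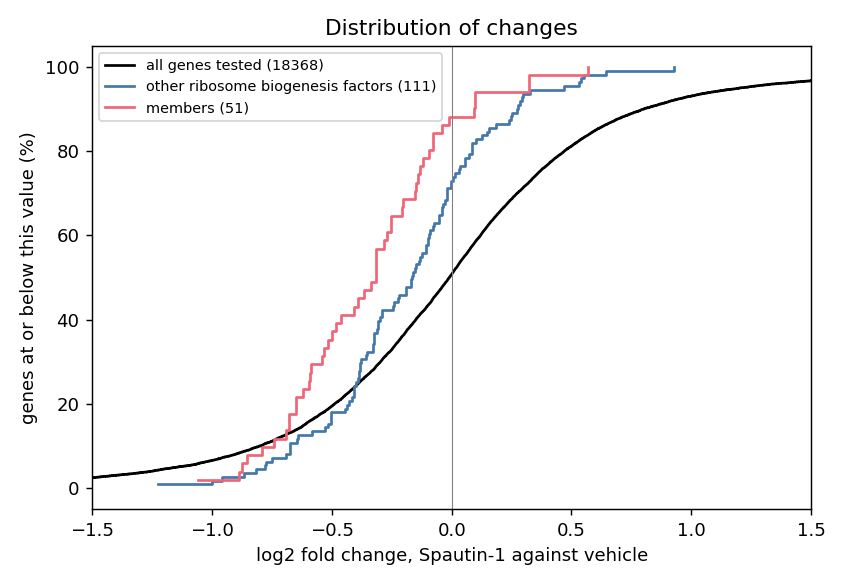
Share of genes (vertical axis, %) at or below each log2 fold change (horizontal axis) for all genes tested, the 111 further factors and the 51 genes described. The medians are -0.011, -0.17 and -0.32, so near the middle the 3 lines lie in that order from right to left; they cross at the largest falls.

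Among the nucleolar proteins with several roles, 1 of 4 fell, where 10.5% of all genes tested were called lower. MYBBP1A (chromosome 17, 4538897 to 4555386), a MYB-binding protein that acts in rRNA synthesis and processing, read 194 and 227 CPM in vehicle replicates 1 and 2, then 138 and 131 CPM in Spautin-1 replicates 1 and 2. It fell 1.57-fold (log2 fold change -0.65 ± 0.11, adjusted p = 0.00155). NOLC1 (chromosome 10, 102152176 to 102163871), a chaperone of box C/D and H/ACA particles, stood at 778 CPM and 701 CPM with vehicle, and at 647 CPM and 633 CPM with Spautin-1. Both treated libraries were below the vehicle pair, without a call (log2 fold change -0.21 ± 0.090, adjusted p = 0.119); NOLC1 was called lower without vehicle replicate 2 (-0.28, adjusted p = 0.00569). LYAR, a nucleolar zinc-finger protein, overlapped between groups at -0.040, and was at 0.11 without vehicle replicate 2.

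Nucleolin (NCL) dominated the pathway's reads. It had 16478 and 15551 CPM after treatment where the vehicle pair had 17516 and 17798 CPM, which is 48.1% to 50.8% of the summed CPM of the 51 genes, and its difference did not pass (log2 fold change -0.14 ± 0.060, adjusted p = 0.116). It was called lower with library size scaling (-0.18, adjusted p = 0.0454), when no low-count filter was used (-0.14, adjusted p = 0.0335) and under the block on replicate number (-0.14, adjusted p = 0.0306). NPM1 held 15.8% and 15.7% of the sum in vehicle and 20.6% and 21.4% in Spautin-1. The other 49 genes summed to 11527 and 12159 CPM in vehicle and to 9914 and 9875 CPM in Spautin-1, while the large-subunit class with NPM1 included went from 8512 and 8990.4 to 9332 and 9486 CPM.

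Set side by side, the classes ordered by median log2 fold change were small subunit (-0.46), large subunit (-0.33), box H/ACA (-0.32), RNA polymerase I (-0.25), the proteins with several roles (-0.17) and box C/D (-0.15). The values within a class ran from -1.06 to 0.32 in the large-subunit class, from -0.27 to -0.011 in box C/D and from -0.86 to -0.076 in RNA polymerase I; the order describes these libraries, and no difference between classes was tested. The order also moved with the library left out: without vehicle replicate 1 the large-subunit median was -0.53 and the small-subunit median -0.47, and without vehicle replicate 2 they were -0.30 and -0.34. The box C/D median was -0.24 and -0.055 in the same fits and -0.23 and -0.076 without Spautin-1 replicate 1 and replicate 2.

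**Figure D4:**
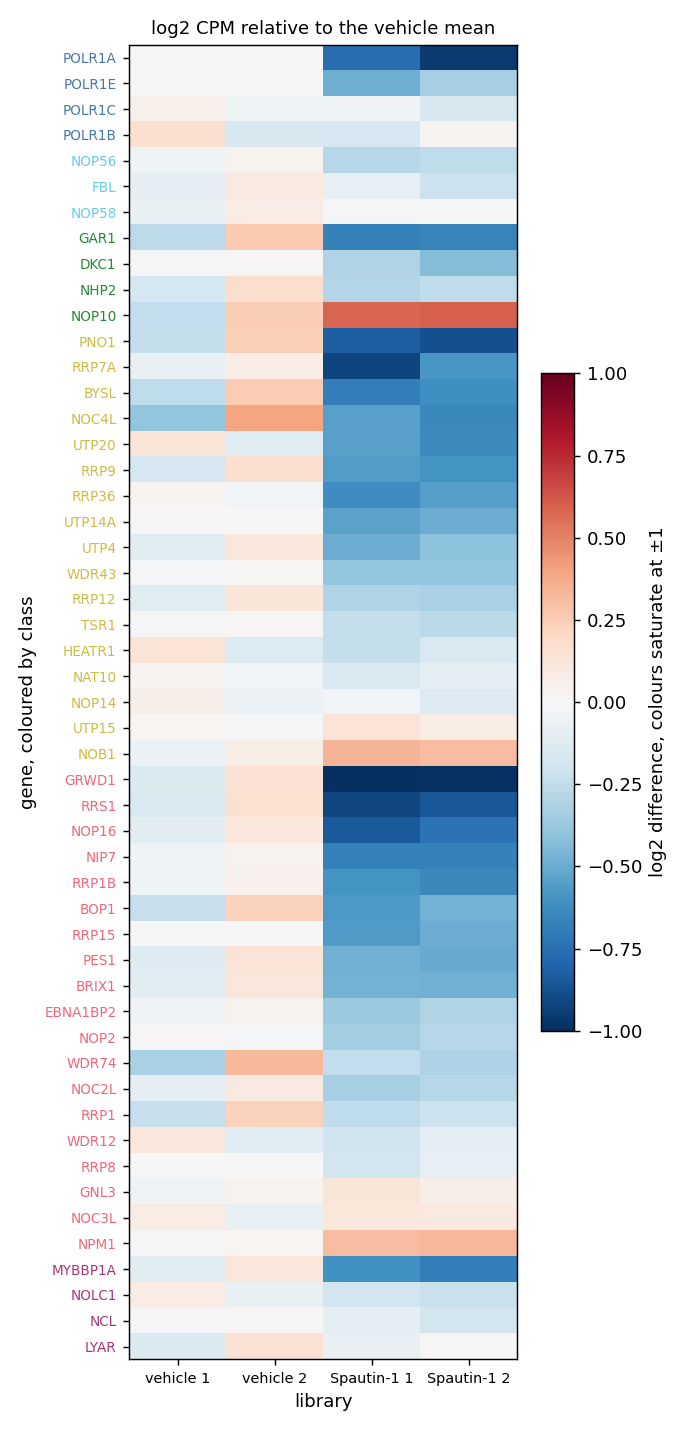
Log2 CPM of the 51 genes (rows, gene names coloured by class) in each of the 4 libraries (columns), relative to the mean of the vehicle libraries; blue is lower and red is higher, and colours saturate at a difference of 1. The rows of the 2 Spautin-1 columns are mostly blue, with NOP10, NOB1 and NPM1 red, and vehicle 1 and vehicle 2 differ most in NOC4L and WDR74.

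The vehicle libraries differed from each other more than the treated libraries did. Over the 51 genes the median absolute difference in log2 CPM was 0.15 between the vehicle libraries and 0.0648 between the Spautin-1 libraries, and differences over 0.2 were seen for 23 and 1 genes. Vehicle replicate 2 was above replicate 1 in 36 of 51 genes (median difference 0.076) and in 48.4% of all genes tested. That difference went with GC content: across the 51 genes Pearson's r between the GC content of the longest transcript and the vehicle difference was 0.54 (Spearman's rho 0.51), while for the difference between the Spautin-1 libraries it was 0.055 across the same 51 genes. Across 16502 genes tested r for the vehicle difference was 0.25. GC content also went with the response, with r = -0.37 and rho = -0.41 over 51 genes that share the same 4 libraries; these correlations across genes are descriptions.

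In 3 equal groups by GC content, 5, 10 and 10 of 17 genes each were called lower from the lowest (35.2% to 47.1%) to the highest group (54.3% to 65.2%), with medians of -0.13, -0.37 and -0.50. In the same fit 10.5% of all genes tested were called lower, and this share was not split by GC content. With an offset for GC content fitted in each library, 26 genes were lower, 23 of them among the 25, and 2 were higher; the median was -0.27, and 12.7% of all genes tested were lower. The class medians with this offset were -0.46 for the small subunit, -0.34 for the large subunit, -0.26 for RNA polymerase I, -0.29 for box H/ACA and -0.098 for box C/D. The level in vehicle ran from 1.14 FPKM for POLR1B to 1980 FPKM for NCL, with a median of 29.5. Its linear correlation with the response was weak (r = 0.17 on the log10 scale, n = 51 genes), as was that of exonic length (r = -0.0073). In groups of 17 genes from the lowest to the highest level, 7, 12 and 6 were called lower, with medians of -0.41, -0.54 and -0.25. The share over all genes tested, 10.5%, was not split into such groups either.

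**Figure D5:**
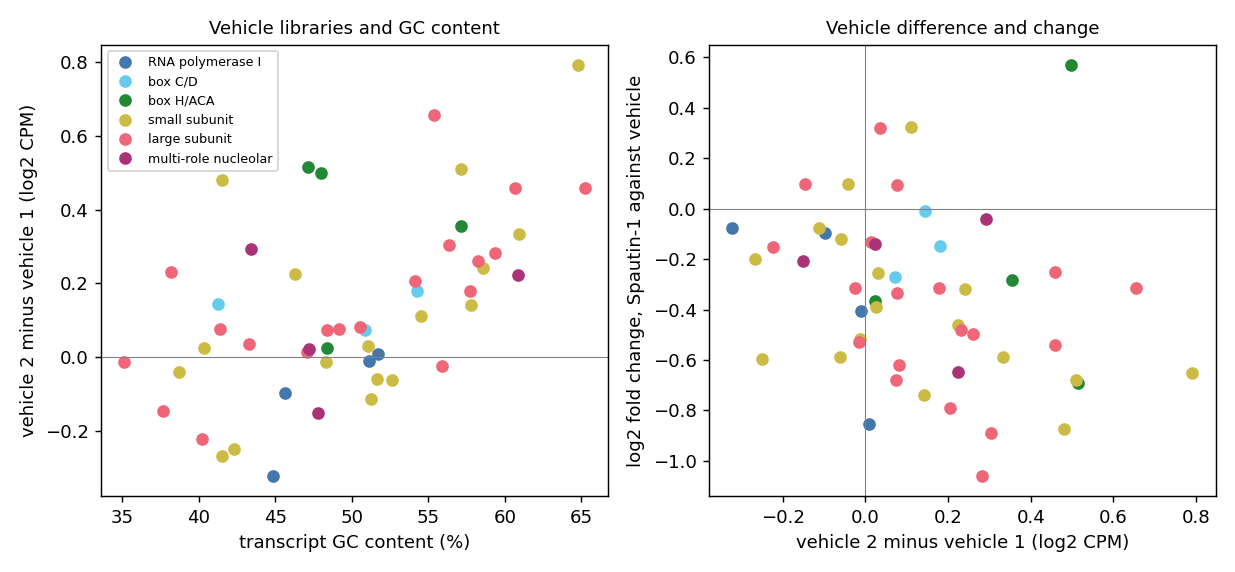
Left, difference in log2 CPM between vehicle 2 and vehicle 1 (vertical axis) against transcript GC content in percent (horizontal axis); right, log2 fold change (vertical axis) against that vehicle difference (horizontal axis). Each of the 51 points is a gene, coloured by class; points rise from left to right on the left (r = 0.54) and fall slightly on the right (r = -0.28).

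Some of the genes are neighbours. UTP4 (chromosome 16, 69131291 to 69231130), NIP7 (chromosome 16, 69337996 to 69343106) and NOB1 (chromosome 16, 69741871 to 69754926) lie close together, with log2 fold changes of -0.46, -0.68 and 0.32, of which NIP7 passed. BYSL, RRP36 and POLR1C on chromosome 6 stood at -0.68, -0.59 and -0.096, the first and second being called lower. The 51 genes lie on 19 chromosomes. In the deposited annotation 12 of them overlap the exons of a further gene on the same strand and 23 with one on the opposite strand. Over 10% of the exonic bases were shared on the same strand in 3 (NOP2, RRS1 and WDR74). On the opposite strand this held for 12: EBNA1BP2, HEATR1, NHP2, NIP7, NOB1, NOP14, NOP16, POLR1C, RRP36, RRP7A, TSR1 and WDR74. For all of these, reads may be divided between genes, since no source used here gives the strand setting of the counting.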

How the data were processed

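Per the labels' protocols, TRIzol RNA went into stranded VAHTS mRNA libraries. The submitters' processing notes name Trimmomatic 0.36, featureCounts in Subread 1.5.1, edgeR 3.12.1 and the build GRCh38; aligner, annotation release and strand setting: not given in the sources used here. Whole read counts for each gene, beside its exonic length, are what the authors deposited, per the file headers. Of counts between 1 and 20, 74.3% to 76.8% were even numbers, and 50.9% to 52.7% of those over 2000; the cause was not tested.

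The filter was edgeR's filterByExpr (minimum count 10, total 15; 18368 genes left), followed by TMM scaling and a test in edgeR 4.0.16 (R 4.3.3; quasi-likelihood, two-sided, Benjamini-Hochberg over all genes). A standard error is the size of the log2 fold change over the root of F. CPM are TMM-scaled, and FPKM are these per kilobase of exonic length. Relative log2 CPM used a prior count of 2. GC content came from GENCODE 29, for 89.8% of genes tested. The rule for values in every library took in each class the 4 called decreases with the smallest p (3 in classes of at most 4), every called increase and the uncalled gene with the largest change, and for further factors the first 2 decreases and first increase by p; other values were added after they were seen. The genes and lists were chosen with earlier results of these data known. Alternatives were RLE and library size scaling, no filter, 1 CPM in 2 libraries, DESeq2 1.42.0, limma-voom 3.58.1, a replicate block, a loess GC offset (span 0.3), an adjusted p under 0.01 and leaving out each library. Only the main edgeR test was tried on simulated counts, drawn with the spread fitted to these same libraries. The GC offset and the fits with 1 library left out were not tried in this way.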

Additional observations from a re-analysis of the deposited data

How the results depend on the processing

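The 51 genes were each refitted under 13 alternatives, 663 values in all: 570 kept their direction and side of the threshold, 39 lost the call, 48 gained it and 6 turned sign. The turned values, none of them called, were NOC3L at -0.0049 with the GC offset, POLR1B at 0.092 without vehicle replicate 1 and 0.0093 without Spautin-1 replicate 1, and NOP58 at 0.063, WDR74 at 0.052 and LYAR at 0.11 without vehicle replicate 2, against -0.083, -0.61 and -0.18 without vehicle replicate 1. Scaling, filters, DESeq2 and limma-voom gave 26 to 31 genes lower, the 25 among them each time. In these fits the share of all genes tested that was called lower ran from 7.27% (no filter) to 14.1% (1 CPM in 2 libraries). The replicate block gave 31 lower and 3 higher, with 11 further factors higher, and 13.5% of all genes tested were called lower. The replicate numbers are not stated to pair libraries. The correlation of same-numbered deviations was -0.0015 over the 18368 genes tested and 0.11 over the 10597 with at least 4 CPM. The GC offset gave 2 higher. At an adjusted p under 0.01, 1938 of all genes were called, 861 lower and 1077 higher, 16 of the 51 were lower, and 15 further factors were lower and 2 higher.

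Leaving out each library gave 1847 to 5766 genes called, 780 to 2785 lower and 1067 to 2981 higher, with 9 to 34 of the 51 lower and 1 to 3 higher, and 11 to 45 further factors lower and 1 to 12 higher. The median over the 51 genes ran from -0.41 to -0.29, for RNA polymerase I from -0.32 to -0.23, box C/D -0.24 to -0.055, small subunit -0.50 to -0.34 and large subunit -0.53 to -0.30. The cause of these moves was not tested. NOP10 had the fewest reads, 142 to 274, with a standard error of 0.22.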
